A study of Bos taurus with 28 samples.

Results

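The genes described here are 3 transcripts of the growth hormone axis in the anterior pituitary gland of beef heifer calves, namely GHRHR (ENSBTAG00000047599), CSHL1 (ENSBTAG00000017220) and IGF1 (ENSBTAG00000011082). They were chosen by gene identifier from the 27607 genes in the count table of the series, and all 3 passed the filter on low counts that left 14939 genes for testing. The symbols were taken from the study's own gene list. CSHL1 is the name given there to a member of the growth hormone family. The cattle reference gene table used here held 1 gene named GH1 and 1 named CSH2 but none named CSHL1. The name used here is therefore that of the study's list. Whether reads were shared with other genes of this family was not tested.

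Growth hormone releasing hormone, secreted by the hypothalamus, binds its receptor GHRHR on the somatotrophs of the anterior pituitary. The receptor raises cyclic AMP inside the cell, which drives both transcription and release of growth hormone. Growth hormone in turn drives the production of insulin-like growth factor 1 (IGF1), chiefly in the liver, and circulating IGF1 restrains growth hormone release at the pituitary and the hypothalamus. IGF1 is also transcribed at a low level within the pituitary itself, and only that local transcript was measured here. Prolactin (PRL), the hormone of the lactotrophs, belongs to the same hormone family as growth hormone and is set against CSHL1 below within each library.

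Messenger RNA was sequenced from the anterior pituitary of 28 Angus × Holstein-Friesian heifers, all sampled at 21 weeks of age. The 13 calves on the high plane of nutrition (HI) were started on 1.5 kg of milk replacer in 10 litres daily in a calf phase of 8 weeks, with concentrates to appetite in that phase and in the 11 weeks after weaning, for a target gain above 1.2 kg per day. The 15 calves on the moderate plane (MOD) were started on 0.5 kg of milk replacer in 4 litres daily with up to 1 kg of concentrates per day, for a target gain of 0.5 kg per day, and both diets included hay after weaning. By the study's methods the milk was gradually reduced before weaning. The sample labels thus hold unequal groups, whereas the study's text describes equal ones, and the labels were followed. Each library was made from the gland of a separate calf, and the glands were bulk tissue, so that fewer cells of a type and less RNA per cell cannot be told apart in any value below. The study listed these 3 genes, and every other gene named below, because they differed between the diets in these same calves, so that the diet differences are not independent evidence of a direction.

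Libraries held 12928932 to 18217216 reads assigned to genes in HI (median 15822757) and 12669266 to 18196391 in MOD (median 15923476), and 1 read was worth 0.0482 to 0.0830 CPM (counts scaled to 1000000 reads of the adjusted library size). Of the pituitary hormone genes with an identifier, PRL took 3.36% to 24.0% of the reads of a library and FSHB, the beta subunit of follicle-stimulating hormone, lay between 271 and 3289 CPM. The defining genes of corticotrophs and thyrotrophs had no identifier among the named genes and were not analysed here. The libraries of HI calf 2535 and MOD calf 2551 stood apart from the others, with a median correlation with the other libraries of 0.953 and 0.955 across the genes tested, against 0.972 to 0.980 for the remaining calves. The diet labels were checked by leaving out each calf in turn, taking the genes past the test and past 1.5-fold without it, and counting in how many of them that calf lay nearer the mean of its own diet. For 25 of the 28 calves this was so in most of the genes, with a median of 73.6% over the calves. The exceptions were HI calf 553 with 39.4%, MOD calf 2551 with 44.4% and HI calf 986 with 44.9%. These calves were kept under their labels.

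GHRHR, the receptor through which the hypothalamus drives the somatotrophs, was lower in the HI calves. Its level in HI ran from 196 to 360 CPM with a median of 275, and in MOD from 227 to 757 CPM with a median of 411. The groups overlapped, but all 13 HI calves lay below the MOD median, as was so for 1.55% of all genes tested. Of the 15 MOD calves, 10 lay above the highest HI calf. No share over all genes was computed for such counts beyond the range of the other diet, here or for the genes below. The MOD calves averaged 424 ± 127 CPM (SD, n = 15) against 278 ± 43.5 CPM (SD, n = 13) for the HI calves, a ratio of means of 1.53. On the log2(CPM + 0.5) scale of the test the level was 1.48-fold higher in MOD (95% confidence interval 1.25 to 1.76). The log2 fold change of HI over MOD was −0.57 (SE 0.12), with an adjusted p of 0.00815 by limma with Benjamini-Hochberg adjustment over all genes tested. Of all genes tested, 1.6% passed this test (adjusted p below 0.05) with a lower level in HI, and the count of 3 of 3 members that passed with a lower level in HI stands beside that share. With 2738 to 13825 reads per library, counting error made up 0.969% of the variance between HI calves and 0.168% of that between MOD calves.

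The spread of GHRHR between calves differed in size between the diets, but not beyond the test on the log2 scale. The HI calves covered a 1.83-fold range and the MOD calves a 3.33-fold range. The SD of the log2 level was 0.23 in HI and 0.42 in MOD, and the difference in mean absolute deviation from the diet median was −0.16 (HI minus MOD, 2-sided permutation test, p = 0.0622, adjusted over the 3 genes p = 0.187). On the CPM scale, on which the higher diet has the wider range, the adjusted p was 0.0154 by the same permutation test. For CSHL1 the SDs of the log2 level were 0.44 in HI and 0.40 in MOD (permutation test, adjusted p = 0.728), and for IGF1 they were 0.28 and 0.48 (permutation test, adjusted p = 0.251).

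CSHL1, the growth hormone family transcript, was among the most heavily sequenced genes of the gland and was lower in HI. Its level in HI ran from 60600 to 150873 CPM with a median of 79069, and in MOD from 92405 to 274951 CPM with a median of 131518. Most HI calves sat below the whole of the MOD group, since 10 of 13 were lower than the lowest MOD calf, whereas the 3 highest HI calves (118247, 131040 and 150873 CPM) lay within the MOD range. The MOD calves averaged 138311 ± 44659 CPM (SD, n = 15) against 85822 ± 29161 CPM (SD, n = 13) for the HI calves, a ratio of means of 1.61. On the log2(CPM + 0.5) scale the level was 1.62-fold higher in MOD (95% confidence interval 1.32 to 2.00). By limma on this scale it passed the test and its estimate was also past 1.5-fold. Both held, with a lower level in HI, for 0.428% of all genes tested. The estimates of GHRHR and IGF1 were just under 1.5-fold by limma and past it by edgeR's quasi-likelihood and exact tests and DESeq2. In these 3 the log2 fold changes were −0.61, −0.61 and −0.60 for GHRHR and −0.76 in each for IGF1. For CSHL1 the log2 fold change of HI over MOD was −0.70 (SE 0.15, limma adjusted p = 0.00719). The HI calf was the lower of the pair in 172 of the 195 pairings of an HI with a MOD calf, a number that 0.656% of all genes reached. CSHL1 alone took 6.45% to 13.5% of the reads of the HI libraries and 9.95% to 22.1% of those of the MOD libraries. A share of this size is that of a main hormone gene of the gland, and which member of the growth hormone family the identifier stands for was not settled here.

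The library with the most CSHL1 was that of MOD calf 2551, in which 22.1% of reads belonged to this gene (95% Wilson interval 22.1 to 22.2, for counting error only). That calf ranked lowest of the 15 MOD calves for GHRHR (227 CPM) and next to lowest for IGF1 (1.08 CPM), and highest for PRL (145610 CPM). Without it the log2 fold change was −0.62 for CSHL1 (limma adjusted p = 0.00555), −0.63 for GHRHR (limma adjusted p = 0.00117) and −0.62 for IGF1 (limma adjusted p = 0.00902). Without both libraries that stood apart the values were −0.68 for CSHL1, −0.62 for GHRHR and −0.60 for IGF1, with limma adjusted p of 0.00221, 0.00228 and 0.0146. Leaving out HI calf 553 or HI calf 986 gave −0.66 and −0.67 for CSHL1, −0.54 and −0.58 for GHRHR, and −0.56 and −0.55 for IGF1, and every one of these 6 values passed limma's test.

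**Figure D1:**
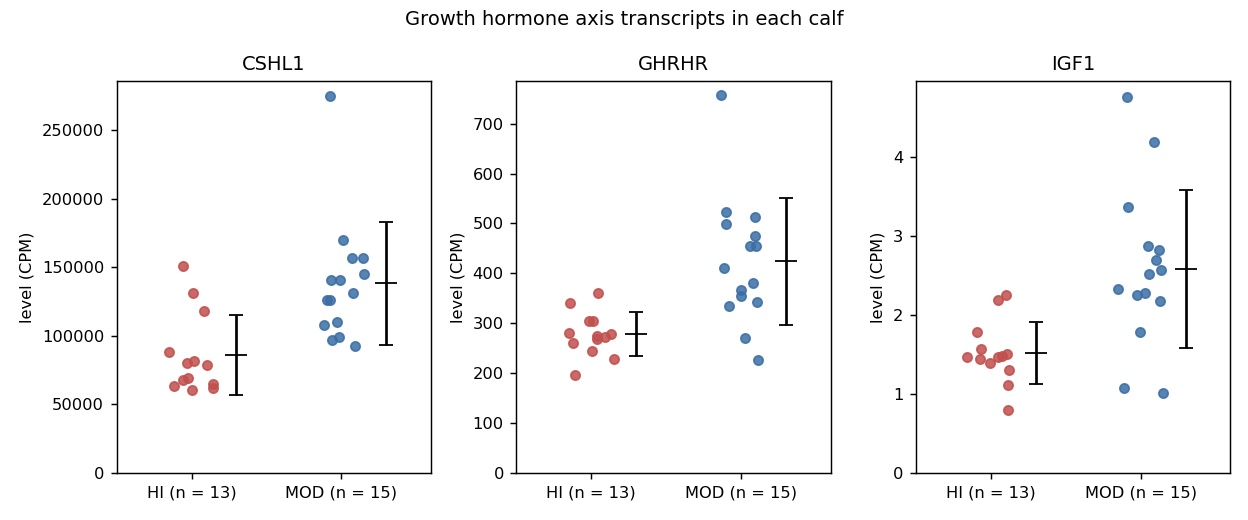
Level of CSHL1, GHRHR and IGF1 (CPM) in each calf, by diet. Points are calves (13 HI, 15 MOD), and the bar beside them is the mean with the SD. All HI calves but 1 lie below the MOD median for CSHL1 (131518 CPM), and all 13 do for GHRHR and IGF1.

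IGF1, the growth factor of the axis, rested on far fewer reads than the other members and was also lower in HI. Its level in HI ran from 0.797 to 2.25 CPM with a median of 1.47, and in MOD from 1.02 to 4.76 CPM with a median of 2.51. All 13 HI calves lay below the MOD median, as was so for 1.55% of all genes tested. Of the 15 MOD calves, 11 lay above the highest HI calf, while MOD calves 1689 and 2551 lay at 1.02 and 1.08 CPM, in the lower end of the HI range. The MOD calves averaged 2.58 ± 0.995 CPM (SD, n = 15) against 1.52 ± 0.390 CPM (SD, n = 13) for the HI calves, a ratio of means of 1.70. The log2 fold change of HI over MOD was −0.56 (SE 0.15, limma adjusted p = 0.0326), or 1.47-fold higher in MOD (95% confidence interval 1.19 to 1.83) on the log2(CPM + 0.5) scale, which understates the change of a gene at this level. On the counts themselves, edgeR's quasi-likelihood test gave −0.76 (adjusted p = 0.0200).

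The IGF1 values rested on 11 to 68 reads per library. The variance that Poisson counting alone would give, at the mean level over all reads of a diet, was 66.3% of the variance observed between the HI calves and 16.5% of that between the MOD calves. The lowest HI calf had a 95% exact Poisson interval of 0.398 to 1.43 CPM and the highest one of 1.63 to 3.03 CPM, and the intervals of calves next to each other in level overlapped, so that their order was not detectable at this depth. The IGF1 call was the least secure of the 3: it missed the adjusted threshold when any of HI calves 1089, 2120, 2535 or 2570 or MOD calves 2346, 2537 or 3622 was left out (limma adjusted p of at most 0.0598), with log2 fold changes of −0.56 to −0.50.

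**Figure D2:**
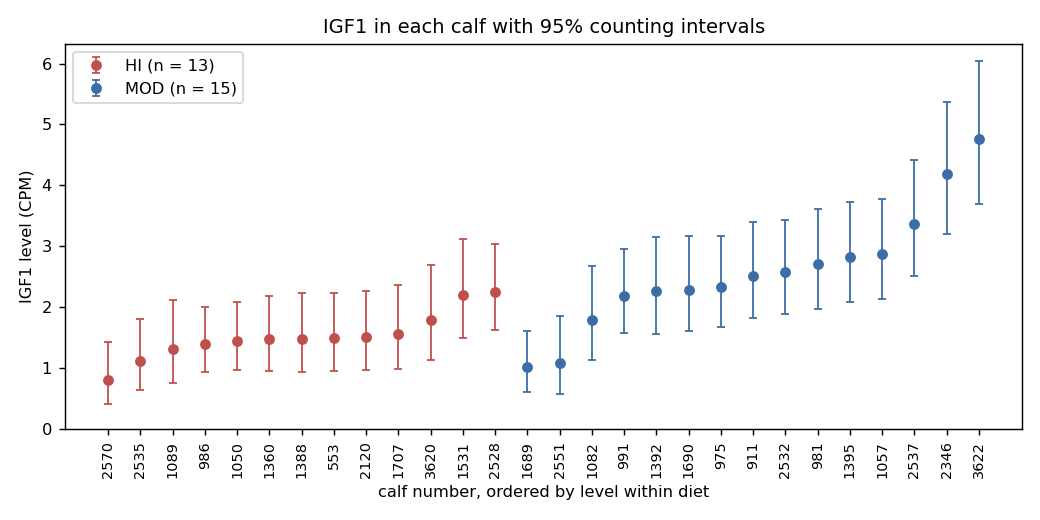
IGF1 level (CPM) in each calf, ordered by level within diet, with the 95% exact Poisson interval of its read count as the bar. Intervals of neighbouring calves overlap throughout both diets, and the 3 highest MOD calves (3.36, 4.18 and 4.76 CPM) have intervals wholly above the highest HI value of 2.25 CPM.

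The members were also compared calf by calf. Relative to the MOD medians, 12 of the 13 HI calves were low in all 3 transcripts. No share was computed for this joint count over sets of 3 genes. For genes taken alone, at least 12 of 13 HI calves lay below the MOD median in 4.89% of all genes tested. The remaining HI calf, 2570, was low in GHRHR and IGF1 but had the highest CSHL1 of its diet (150873 CPM). In MOD, 4 calves (975, 991, 1082 and 1689) were below the MOD median in all 3, whereas 5 were below it in none.

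CSHL1 was set against PRL, the other hormone transcript that takes a large share of each library, as a ratio of reads within a library, which does not depend on library size. No HI calf held more CSHL1 than PRL reads, whereas 13 of 15 MOD calves did. The log2 ratio of CSHL1 to PRL ran from −1.75 to −0.11 in HI (mean −0.87 ± 0.55 SD) and from −0.22 to 2.13 in MOD (mean 0.84 ± 0.63 SD). The difference was −1.71 (2-sided permutation test, p = 1e-05, the smallest that 100000 resamples can give), with the HI calf lower in 194 of 195 pairings. PRL itself averaged 78905 ± 27771 CPM over the MOD calves (SD, n = 15) and 165690 ± 72208 CPM over the HI calves (SD, n = 13; log2 fold change 1.01, limma adjusted p = 0.00815), so that the ratio combines opposite differences in genes that the study listed for differing. The summed share of CSHL1 and PRL was 24.1% ± 6.61 of reads in HI and 21.7% ± 3.82 in MOD, a difference of 2.40 percentage points that did not pass (2-sided permutation test, p = 0.241).

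**Figure D3:**
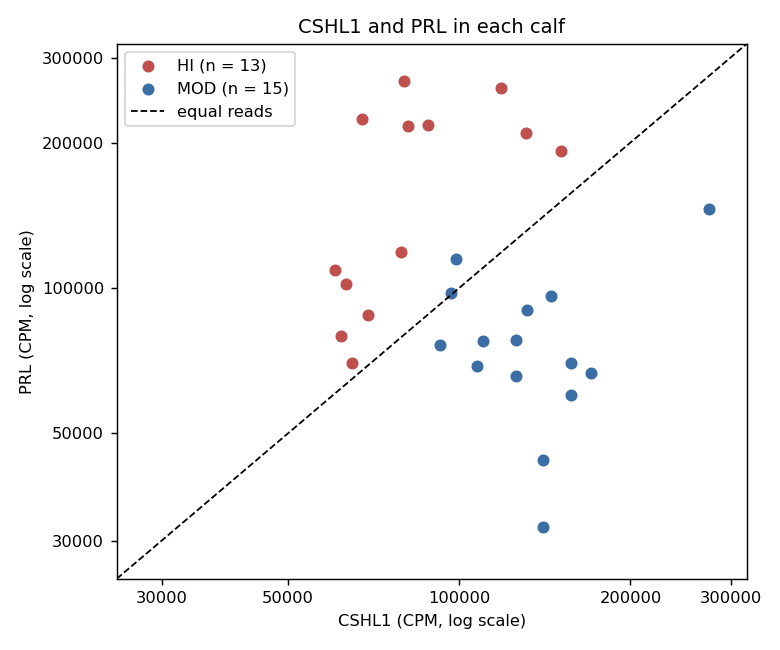
PRL against CSHL1 (both in CPM, log scales), each point a calf, with a dashed line where the reads are equal. All 13 HI calves lie above the line and 13 of 15 MOD calves below it, with MOD calf 2551 at the far right (CSHL1 274951 CPM).

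The question whether the members varied together was asked within each diet, so that the diet difference does not enter, as 8 relations of log2 levels (3 pairs of members, and CSHL1 with PRL, in each diet). No relation of CSHL1 and GHRHR was detected over the 15 MOD calves (Pearson r = 0.05, with p = 0.859 by permutation and the same after adjustment; Spearman rho = 0.44, with p = 0.106 by permutation and 0.212 after adjustment). Without MOD calf 2551, an exclusion chosen after seeing the data, r over the other 14 calves was 0.79 (permutation p = 0.00055, adjusted over the MOD relations only p = 0.0022). With the 2 MOD calves most distant from the median of CSHL1 left out, r was 0.78 (permutation adjusted p = 0.0105), so that the absence or presence of a relation rests on that calf. In HI the r of CSHL1 and GHRHR was 0.15 (permutation adjusted p = 0.796) and rho was 0.13 (permutation adjusted p = 0.778).

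CSHL1 and IGF1 varied in opposite directions over the HI calves, with r = −0.78 (permutation p = 0.00121, adjusted p = 0.00968) but rho = −0.57 (permutation p = 0.0486, adjusted p = 0.187). The relation rested on HI calves 2535 and 2570, which had the most CSHL1 and the least IGF1 (1.11 and 0.797 CPM, from 16 and 11 reads), since without them r was −0.47 (permutation adjusted p = 0.289). Without calf 2535 alone, the HI library that stood apart, r was −0.75 (permutation adjusted p = 0.0229). In MOD the r of CSHL1 and IGF1 was −0.17 (permutation adjusted p = 0.796) with all calves and 0.34 (permutation adjusted p = 0.324) without calf 2551. GHRHR and IGF1 gave r of −0.38 in HI and 0.44 in MOD, with permutation adjusted p of 0.400 and 0.259, and rho of −0.52 and 0.32, with permutation adjusted p of 0.187 and 0.390. These values also moved with few calves. In MOD r was 0.23 without calf 2551 (permutation p adjusted over the MOD relations only, 0.429). In HI r was −0.61 without the 2 calves with most CSHL1 (permutation p adjusted over the HI relations only, 0.0948). It was −0.15 without the 2 HI calves most distant from the median of GHRHR (permutation adjusted p = 0.670). None of these passed after adjustment.

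**Figure D4:**
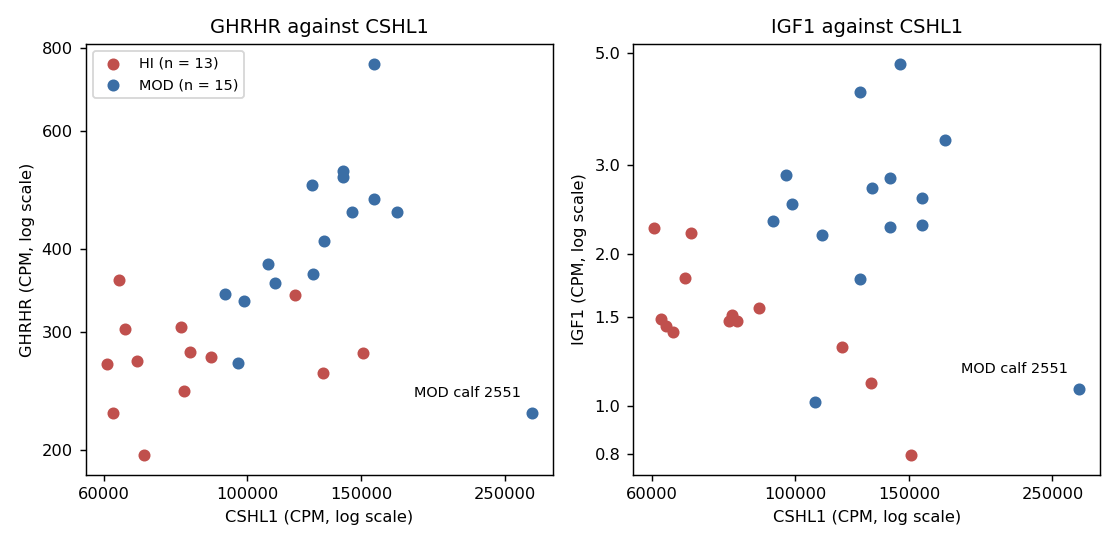
GHRHR (CPM, left) and IGF1 (CPM, right) against CSHL1 (CPM), all on log scales, each point a calf coloured by diet. MOD calf 2551 lies away from the other MOD calves in both panels, with CSHL1 at 274951 CPM, GHRHR at 227 CPM and IGF1 at 1.08 CPM.

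For CSHL1 and PRL a coefficient over all HI calves is not read as a relation, because PRL fell into separate ranges in HI, 6 calves from 70067 to 118463 CPM and 7 from 191905 to 267896 CPM. CSHL1 ran from 60600 to 79069 CPM (median 63970) in the calves with less PRL and from 67539 to 150873 CPM (median 87968) in those with more. Within these ranges r was 0.40 (n = 6, exact permutation p = 0.442; rho 0.14, exact permutation p = 0.803) and −0.41 (n = 7, exact permutation p = 0.371; rho −0.68, exact permutation p = 0.110). The ranges were set by PRL itself after seeing the data and hold few calves, so that these values do not show that a relation is absent. In MOD r was 0.11 (permutation adjusted p = 0.796) and rho was −0.20 (permutation adjusted p = 0.645).

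Of the 40 genes in a list of the growth hormone and IGF axis, 6 had an identifier that could be matched to a symbol, because symbols were available only for the genes of the study's own list, and so all 6 were genes the study had picked as differing. All 6 passed, 4 lower and 2 higher in HI (1.82% of all genes tested passed with a higher level), with a median log2 fold change of −0.56 beside −0.01 over all genes tested. Besides the 3 members these were PRL, PAPPA2 and PRKCB. PAPPA2, a protease that frees IGF1 from its binding proteins, averaged 23.5 ± 10.3 CPM over the MOD calves (SD, n = 15) and 11.3 ± 4.86 CPM over the HI calves (SD, n = 13; log2 fold change −1.01, limma adjusted p = 0.00282). PRKCB, a protein kinase C, was at 20.1 ± 5.57 CPM in HI and 12.7 ± 2.12 CPM in MOD (log2 fold change 0.61, limma adjusted p = 0.00282). PAPPA2, like GHRHR, had its lowest MOD value in calf 2551 (12.2 CPM).

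Of 23 genes of the cyclic AMP pathway that acts below GHRHR, and of its immediate transcriptional response, 8 had an identifier, again only from the study's list. Since the study picked these genes for differing, neither their sign nor their number is independent evidence. Of the 8, 4 passed, all lower in HI, beside 1.6% of all genes tested, and the median log2 fold change of the 8 was −1.04 beside −0.01 over all genes tested. RASD1, a small G protein, was at 66.0 ± 24.5 CPM in HI and 153 ± 64.6 CPM in MOD, and all 13 HI calves lay below the MOD median (log2 fold change −1.19, limma adjusted p = 0.00185). EGR1, an immediate early transcription factor, was at 96.0 ± 104 CPM in HI and 276 ± 181 CPM in MOD (log2 fold change −1.64, limma adjusted p = 0.0302). SIK1, a kinase induced by cyclic AMP that restrains the response to it, had a log2 fold change of −0.71 (limma adjusted p = 0.0303), and RGS1, a regulator of G protein signalling, of −1.09 (limma adjusted p = 0.0479). The other 4 did not pass: CREM, FOSB, JUNB and ATF3 had log2 fold changes of −0.53, −1.54, −0.997 and −0.85, with limma adjusted p of 0.116, 0.0551, 0.0814 and 0.153. MOD calf 2551, lowest of its diet in GHRHR, held the most SIK1 (110 CPM) and ATF3 (36.1 CPM) of its diet.

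**Figure D5:**
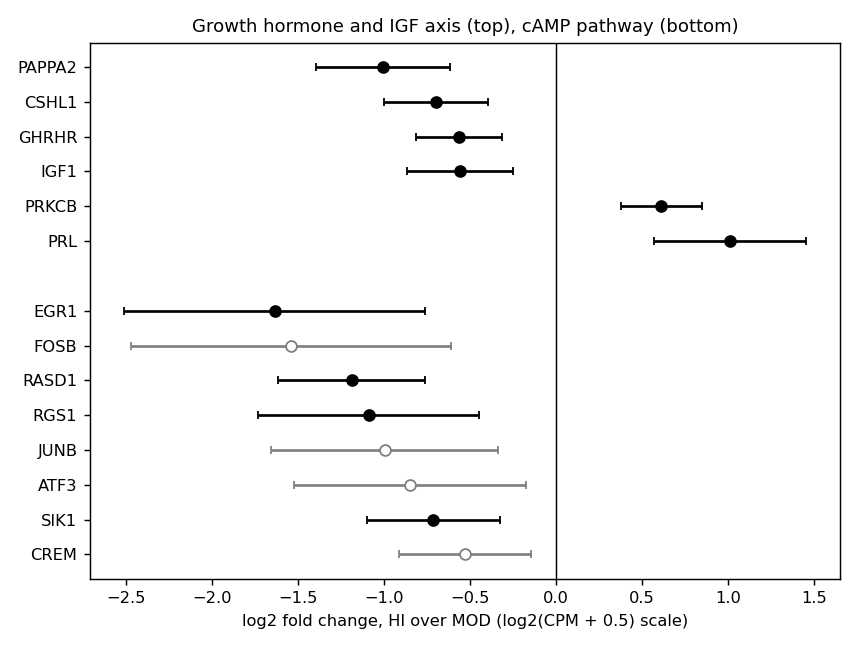
Log2 fold change of HI over MOD on the log2(CPM + 0.5) scale for the 6 genes of the growth hormone and IGF axis (top) and the 8 of the cyclic AMP pathway (bottom) that had an identifier, with 95% confidence intervals as bars. Filled points passed limma's test at an adjusted p below 0.05 and open points did not. CSHL1, GHRHR and IGF1 lie between −0.70 and −0.56.

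Markers of other pituitary cell types had an identifier only where the study had listed the gene for differing between the diets, so that their differences do not show how the whole marker lists behaved. Of 3 lactotroph markers 2 had one, and both PRL and DRD2, the dopamine receptor that restrains prolactin release, passed as higher in HI (DRD2 408 ± 127 against 206 ± 43.1 CPM, log2 fold change 0.94, limma adjusted p = 0.000453). Of 3 gonadotroph markers 1 had one, FSHB, which was lower in HI, at 707 ± 705 against 1554 ± 810 CPM (log2 fold change −1.27, limma adjusted p = 0.0316). Beside these counts, 1.82% of all genes tested passed as higher and 1.6% as lower in HI. The part of these cell types in the differences of CSHL1, GHRHR and IGF1 was not tested. In MOD calf 2551 FSHB was the lowest (347 CPM) and DRD2 the highest (279 CPM) of its diet.

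Markers of tissues that can be taken with the anterior lobe were measured as far as they had an identifier. Of 6 genes of the neural lobe and oligodendrocytes, OMG and NKX2-2 had an identifier, and both passed in opposite directions (log2 fold change 0.67 and −0.66, limma adjusted p of 0.0308 and 0.00719). Their summed level was at most 48.8 CPM in HI and 94.0 CPM in MOD, with OMG between 0.120 and 3.92 CPM over all calves. The 4 muscle genes summed to 23.8 to 84.2 CPM in HI and 31.5 to 150 CPM in MOD, and 1 of them, MYH6, passed (log2 fold change 0.96, limma adjusted p = 0.0135). The others did not pass and differed in sign, with log2 fold changes of −0.69 for ACTA2, −0.51 for LMOD1 and 0.95 for MYH4 (limma adjusted p of 0.128, 0.131 and 0.0773). Of 3 macrophage genes 2 had an identifier, CX3CR1 and TIMD4, and neither passed. Both estimates were higher in HI (log2 fold change 0.63 and 0.77, limma adjusted p of 0.105 and 0.0544). The summed level of these macrophage genes was 23.1 to 112 CPM in HI and 16.6 to 66.5 CPM in MOD. The B cell gene CD79B, at up to 2.22 CPM in HI and 3.65 CPM in MOD, passed as lower in HI (log2 fold change −0.65, limma adjusted p = 0.0131). The part of these cells in the members' differences was not tested.

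To describe which genes shared the pattern of each member, log2 levels were centred on the diet mean and correlated over the 28 calves, and the genes of the study's list were ranked. GHRHR was most like HIF3A, a hypoxia-inducible factor subunit, with r = 0.76, the highest of all 14938 genes compared, followed by CCSER1 (r = 0.74, with 1 gene above it) and RTL9 (r = 0.64, with 26 above). Without MOD calf 2551 these values were 0.66 for HIF3A (5 genes above), 0.69 for CCSER1 (2 above) and 0.47 for RTL9 (174 above). CSHL1 was most like BEAN1 (r = 0.63), a value that 952 genes exceeded, and IGF1 was most like CCSER1 (r = 0.45), a value that 1053 genes exceeded. Without MOD calf 2551 the gene of the study's list most like CSHL1 was PAPPA2 (r = 0.72, 176 above) and the gene most like IGF1 was ARC, an immediate early gene of neurons (r = 0.56, 45 above). All points share the libraries and their scaling, and these coefficients are given as a description.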

How the data were processed

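The anterior pituitary libraries had been trimmed (cutadapt 2.6), aligned to ARS-UCD1.2 (STAR 2.6.1) and counted per gene, according to the submitters' processing notes, which also name FastQC 0.11.8, R 3.4 and edgeR 3.5. The deposited values are a normalised signal, counts scaled to 1000000 reads (CPM) of library sizes adjusted by the trimmed mean of M values (TMM), as shown by recomputing those factors. Whole reads were recovered from them: 100.0% of positive values under 5000 reads came out whole within 0.001 of a read. Strand use in counting is not given in the sources used here.

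Levels were tested with limma 3.58.1 (trended, robust empirical Bayes) on log2(CPM + 0.5) over the 14939 genes kept by edgeR's filterByExpr, without covariates, with Benjamini-Hochberg adjustment. A gene passed at an adjusted p below 0.05, and MOD was the reference. Relations, spreads, ratios and shares were tested by 2-sided permutation with 100000 resamples (Python 3.11.15, scipy 1.17.1). Alternatives were other scalings, pseudocounts and filters, edgeR 4.0.16 (quasi-likelihood and exact tests), DESeq2 1.42.0, limma-voom, library size as a covariate, and each calf left out. The scripts were tested on simulated data. Depth was 12669266 to 18217216 reads per library.

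The genes named were the 3 members, PRL, list genes with an identifier, and the genes of the study's list most like each member. Members and lists were chosen with earlier results of these data known. Symbols came from the study's list (159 of 195 identifiers), whose fold changes and p-values were not used. Blocks of animals are not in the labels and no paired fit was made. Genome positions and sequences were not used here, because the reference table is of another assembly and holds no Ensembl identifiers.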

Additional observations from a re-analysis of the deposited data

How the results depend on the processing

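The lower levels of CSHL1 and GHRHR in HI passed under all 13 other settings and with each of the 28 calves left out, with log2 fold changes of −0.77 to −0.62 for CSHL1 and −0.63 to −0.50 for GHRHR over the fits without 1 calf. IGF1 kept its direction throughout but missed the threshold with plain library totals (−0.59, limma adjusted p = 0.0520) and in 7 of 28 fits without 1 calf (−0.63 to −0.50 over all 28), and it was −0.36 with a pseudocount of 2, by construction of that scale. The limma estimates of GHRHR and IGF1 lie just under 1.5-fold, so that a further fold threshold of 1.5 was met in 5 of 13 and 7 of 13 settings. Genes passing numbered 511, but 323 with plain totals, 830 with DESeq2 and 352 to 814 without 1 calf, the most without MOD calf 2551. Genes also past 1.5-fold numbered 125, against 69 with a pseudocount of 2, 212 with edgeR's exact test and 211 with DESeq2, and split into 61 higher and 64 lower, or 46 and 75 with plain totals. The cause of these differences was not tested.

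Relations within a diet depended on few calves. CSHL1 with GHRHR in MOD rose from 0.05 to 0.79 without calf 2551 (also without both libraries that stood apart) and 0.78 without the 2 calves farthest from the median of CSHL1. CSHL1 with IGF1 in HI moved from −0.78 to −0.57 (rho) and −0.47 without the 2 calves with most CSHL1, which are also the farthest. CSHL1 with IGF1 in MOD went from −0.17 to 0.057 (rho), and to 0.34 without calf 2551 or without the 2 farthest calves. CSHL1 with PRL in HI, over calves that fall into separate PRL ranges, was 0.62 (permutation adjusted p = 0.0966; rho 0.59, adjusted p = 0.187) and 0.71 without the 2 farthest calves (permutation adjusted p = 0.0340). In MOD it went from 0.11 to −0.20 (rho), −0.47 without the 2 farthest and −0.44 without calf 2551. On the CPM scale the difference in mean absolute deviation was −8332 CPM for CSHL1, of the other sign than on the log2 scale, and −62.6 CPM for GHRHR, past the threshold. The ratio of CSHL1 to PRL ranged from −1.78 to −1.62 and the summed share difference from 1.68 to 3.27 points without 1 calf, on the same side of the threshold. The exclusions of named calves were chosen after seeing the data.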
